A study of Mus musculus with 4 samples.

Results

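The genes described here encode Rab GTPases and SNARE proteins of regulated exocytosis, the route by which a secretory cell releases stored granules. The 10 genes were taken by symbol from a list, and all 10 were found among the 24411 gene symbols of the deposited count table. They are 5 Rab genes (Rab3d, Rab27a, Rab27b, Rab11a and Rab26) and 5 SNARE genes (Vamp2, Vamp8, Snap23, Stx3 and Stx4a). RNA sequencing had been done on the sublingual gland, a mainly mucous salivary gland, of female C57BL/6J mice. Every library came from Nkx2.3-/- animals, which lack a homeobox transcription factor gene, so the knockout is shared by both groups and no library with intact Nkx2-3 was analysed here. There were 2 libraries at 8 weeks of age (replicates 1 and 2) and 2 at 32 weeks (replicates 3 and 4). The labels do not say whether each library is a separate animal or a pool. The spread between libraries may therefore not be that between single animals, and how much of it is technical is not known.

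Rab GTPases are molecular switches that sit on vesicles when bound to GTP and recruit effectors that move and tether the vesicle. SNAREs then do the fusing: a vesicle SNARE (a VAMP) zips up with a syntaxin and a SNAP25-type protein of the plasma membrane. In salivary and pancreatic acinar cells, mature granules carry Rab3D and Rab27B together with VAMP8 and VAMP2, and SNAP23 and syntaxins complete the fusion complex.

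Rab proteins are held on membranes by lipid groups attached to cysteines at their very end, and this end also differs most between paralogs. The last 48 coding bases, stop codon included, are therefore shown for 4 Rab members and for Rab11b, the paralog nearest to Rab11a, with the cysteine codons in capitals. They come from the longest coding transcript of each gene in GENCODE vM1 on NCBIM37 (mm9), 5′ to 3′, and each lies in the last exon of that transcript.
Rab3d (chr9:21714928-21714975, minus strand): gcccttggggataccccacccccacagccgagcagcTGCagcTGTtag
Rab27a (chr9:72943216-72943263, plus strand): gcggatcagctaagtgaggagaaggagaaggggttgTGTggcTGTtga
Rab11a (chr9:64564656-64564703, minus strand): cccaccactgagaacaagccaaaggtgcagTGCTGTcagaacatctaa
Rab11b (chr17:33884613-33884660, minus strand): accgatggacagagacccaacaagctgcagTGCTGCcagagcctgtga
Rab26 (chr17:24666486-24666533, minus strand): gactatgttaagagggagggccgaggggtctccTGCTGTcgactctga
Each of the 5 ends held 2 cysteine codons. In Rab3d and Rab27a they were separated by 1 other codon and closed the coding sequence, and in Rab11a, Rab11b and Rab26 they were adjacent and followed by further codons.

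SNAP25-type proteins have no membrane-spanning part, and SNAP23 and SNAP25 are anchored by lipids on a cluster of cysteines. The stretch of 12 codons richest in cysteine codons (capitals) is shown for Snap23 and for its neuronal paralog Snap25, since this cluster separates them from the other 2 paralogs.
Snap23 (chr2:120411972-120412007, plus strand, exon 5): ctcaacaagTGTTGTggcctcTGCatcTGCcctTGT
Snap25 (chr2:136595870-136595905, plus strand, exon 5): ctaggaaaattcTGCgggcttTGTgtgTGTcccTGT
Snap23 had 5 cysteine codons in this stretch (codons 76 to 87) and Snap25 had 4 (codons 81 to 92). The richest stretch of the same length held 0 in Snap29 and 1 in Snap47.

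The paralogs had no 50-base window in common with a member. Coding sequences were 69.2% identical between Rab27a and Rab27b, 75.7% between Rab11a and Rab11b, 76.7% between Rab3d and Rab3a, 75.9% between Vamp2 and Vamp3, 60.2% between Vamp2 and Vamp8, 68.5% between Snap23 and Snap25, and 57.6% between Stx3 and Stx4a. The longest run of identical bases was 32 between the Rab27a and Rab27b transcripts and 14 between those of Rab11a and Rab11b. No 50-base window of a member's transcript recurred in a coding transcript of another gene for Rab3d, Rab11a, Rab26, Vamp2, Vamp8, Stx3 and Stx4a. Such windows made up 1.23% of Rab27a, 0.307% of Rab27b and 1.34% of Snap23, and the genes they matched were not their paralogs. Neither the read length nor the handling of reads with several matches is known here, and pseudogenes were not searched.

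Total counts were 12925869 and 14265485 at 8 weeks and 16484772 and 16111122 at 32 weeks. Epithelial markers (Epcam, Cdh1, Krt8, Krt18 and Krt7) summed to 1253 to 1530 CPM (counts scaled to a common library size by TMM). Muc19, the main mucin of this gland, stood at 12012 to 20266 CPM and was lowest in 8-week replicate 1. Other mucous acinar markers were lowest in 8-week replicate 2: Agr2 (5.59 against 49.5 to 57.1 CPM in the others), Creb3l1, Spdef and Galnt12. Libraries differed in markers of other cells and glands: 4 parotid markers summed to 422 CPM in 8-week replicate 1 and to 2.73 CPM in 32-week replicate 4, and 6 B cell and plasma cell markers summed to 77.5 CPM in 8-week replicate 2 against 527 to 940.1 CPM in the others. Serous and demilune markers, the secretory products Dcpp1, Dcpp2, Dcpp3 and Bpifa2 among them, differed 2.86-fold in sum. Rn45s, the ribosomal RNA precursor, took 3.69% of counts in 8-week replicate 1 and 3.38% in 32-week replicate 4, against 1.40% and 2.24% in replicates 2 and 3. The 7 markers of neurons and nerve summed to 9.73 to 12.3 CPM. In whole-gland RNA, fewer cells of a type and less RNA per cell cannot be told apart.

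Vamp8 and Rab3d stood far above the other members. Levels of different genes were compared as CPM per kilobase of the longest coding transcript. Vamp8, the vesicle SNARE also called endobrevin, had 264 and 272 CPM per kb at 8 weeks and 318 and 275 CPM per kb at 32 weeks, and its mean of 283 ± 24.4 (SD, n = 4) ranked 150th of 20326 genes with a length. Rab3d had 86.05 and 86.06 CPM per kb at 8 weeks and 89.97 and 88.1 CPM per kb at 32 weeks, with a mean of 87.5 ± 1.88 (SD, n = 4). Vamp8 made up 59.8% ± 2.21 and Rab3d 18.6% ± 0.538 (SD, n = 4) of the summed level of the 10 members. Vamp8 exceeded Rab3d 3.23-fold and Rab3d exceeded the next member 3.45-fold, with no overlap of the 4 libraries at either step. The first of these steps rests on transcript length: over the union of all annotated exons the mean levels were 100.3 for Vamp8 and 81.1 CPM per kb for Rab3d.

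**Figure D1:**
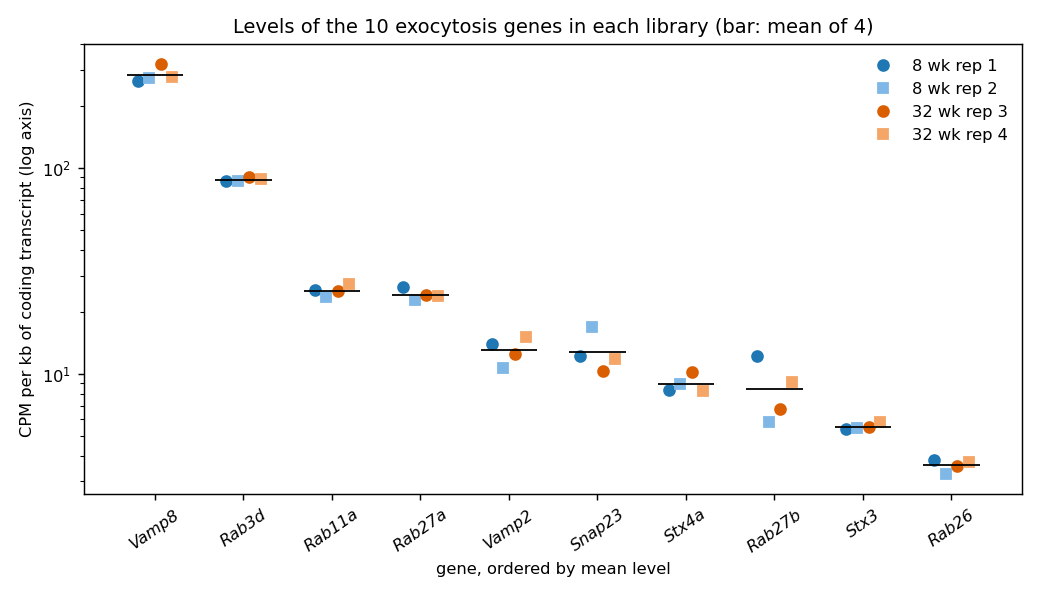
Level of each of the 10 genes in each library, as CPM per kb of the longest coding transcript on a log axis; points are single libraries and bars the mean of 4. Vamp8 (264 to 318) and Rab3d (86.05 to 89.97) lie above all other genes in every library, and Rab27b (5.80 to 12.2) is the most spread out.

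Below these, the order fell into pairs that did not separate. Rab11a (25.4 CPM per kb) and Rab27a (24.2) overlapped and swapped order over the union of exons. Vamp2 (13.02) and Snap23 (12.8) also overlapped and swapped. Stx4a (8.96) and Rab27b (8.46) overlapped, with Stx4a higher in 2 of 4 libraries. Rab27b and Stx3 overlapped in range, although Rab27b was higher in each of the 4 libraries. Stx3 (5.53) and Rab26 (3.59 CPM per kb) were lowest and did not overlap each other.

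Among the Rab GTPases, Rab3d was by far the main Rab3 gene. Rab3d (NCBIM37 chr9:21711935-21722636, minus strand) had 4535 and 4847 counts at 8 weeks and 5061 and 5892 counts at 32 weeks, or 334.4, 334.4, 349.6 and 342 CPM in the same order. The libraries were nearly level, with the highest 1.05-fold above the lowest. It made up 92.03% ± 0.771 (SD, n = 4) of the Rab3 family per kb, in a range of 91.4% to 93.1%. Rab3a, best known from synaptic vesicles, made up 7.92% ± 0.761, with 9.80 to 12.8 CPM. Rab3b had 1 to 3 counts in each library. Rab3c had 0 counts in 8-week replicate 1 and 32-week replicate 3, where 3 counts would be 0.221 and 0.207 CPM, and 2 and 3 counts in the other libraries. The ratio of Rab3d to Rab3a per kb was 11.3 and 13.7 at 8 weeks and 11.2 and 10.7 at 32 weeks.

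Rab27a was the larger Rab27 gene per length in every library, and Rab27b was the more variable. Both proteins tether granules at the plasma membrane through synaptotagmin-like and Slac2 effectors. Rab27a (chr9:72892672-72945399, plus strand) had 78.1 and 67.6 CPM (8 weeks), then 71.8 and 70.5 CPM (32 weeks). Rab27b had 84.3 and 39.9 CPM (8 weeks), then 46.4 and 62.6 CPM (32 weeks), so the highest and the lowest library were both 8-week libraries. Per kb, Rab27a made up 68.2% and 79.7% of the pair at 8 weeks and 78.2% and 72.3% at 32 weeks (mean 74.6% ± 5.31, SD, n = 4). The transcript of Rab27b is the longer (6891 against 2971 bases), and as a share of counts with no length Rab27a made up 56.2%.

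Rab11a shared its family with 2 paralogs of similar or higher level. Rab11 proteins serve recycling endosomes that deliver cargo to the apical membrane, and Rab25 is the member largely restricted to epithelia. Rab11a (chr9:64563106-64585565, minus strand) had 59.4 and 54.9 CPM (8 weeks), then 59.1 and 63.5 CPM (32 weeks), all within 1.16-fold. Per kb, Rab25 took 48.1% ± 2.15, Rab11a 26.2% ± 3.68 and Rab11b 25.7% ± 3.85 (SD, n = 4) of the family. The ratio of Rab11a to Rab11b per kb was 1.21 and 0.682 at 8 weeks and 1.06 and 1.23 at 32 weeks, so Rab11b was the larger of them in 8-week replicate 2 alone. Over the union of exons Rab11a was below Rab11b in all 4 libraries (0.532 to 0.957), so their order is not settled by these counts. As shares of counts with no length Rab25 was the smallest (28.7%), behind Rab11b (37.5%) and Rab11a (33.8%).

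Rab26, a granule Rab of acinar cells, was the least abundant member. It had 74 and 68 counts at 8 weeks and 74 and 92 counts at 32 weeks, or 4.69 to 5.46 CPM (chr17:24664740-24670692, minus strand). Its nearest paralog Rab37 had 1 to 9 counts, and Rab26 made up 96.8% ± 2.43 (SD, n = 4) of the pair per kb. Rab3d exceeded Rab26 22.6-fold to 26.3-fold per kb. Rab26os, a long noncoding RNA that RefSeq lists beside Rab26, had 91 and 98 counts at 8 weeks and 155 and 141 counts at 32 weeks, and without a stated strand setting reads of the 2 genes may be mixed. Bhlha15, the acinar transcription factor known to bind the Rab3D and Rab26 genes in other secretory cells, had 183 and 120.2 CPM (8 weeks), then 156 and 159 CPM (32 weeks).

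Among the vesicle SNAREs, Vamp8 dominated. It lies at chr6:72335217-72340697 on the minus strand and had 2937 and 3237 counts at 8 weeks and 3780 and 3888 counts at 32 weeks, or 217, 223, 261 and 226 CPM. The 32-week libraries were the higher ones, 32-week replicate 4 by little. Vamp8 made up 88.5% ± 0.962 (SD, n = 4) of the 6 VAMP genes in the table per kb, and 80.6% over the union of exons. Vamp7 is not analysed here. Vamp2, the vesicle SNARE of synapses that is also found on acinar granules (chr11:68901992-68905886, plus strand), had 30.7 and 23.5 CPM (8 weeks), then 27.4 and 33.2 CPM (32 weeks), or 4.11% ± 0.758 of the family per kb. Vamp3, a recycling endosome SNARE, made up 3.83% ± 0.992 and was above Vamp2 in replicates 2 and 3 (ratio of Vamp2 to Vamp3 0.652 and 0.936) and below it in replicates 1 and 4 (1.40 and 1.62). Vamp8 exceeded Vamp2 18.3-fold to 25.6-fold per kb, and 11.2-fold to 15.7-fold over the union of exons. Vamp1, Vamp4 and Vamp5 each made up 1.00% to 1.26% on average, and Vamp1 overlaps Tapbpl and Cd27 on the other strand.

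**Figure D2:**
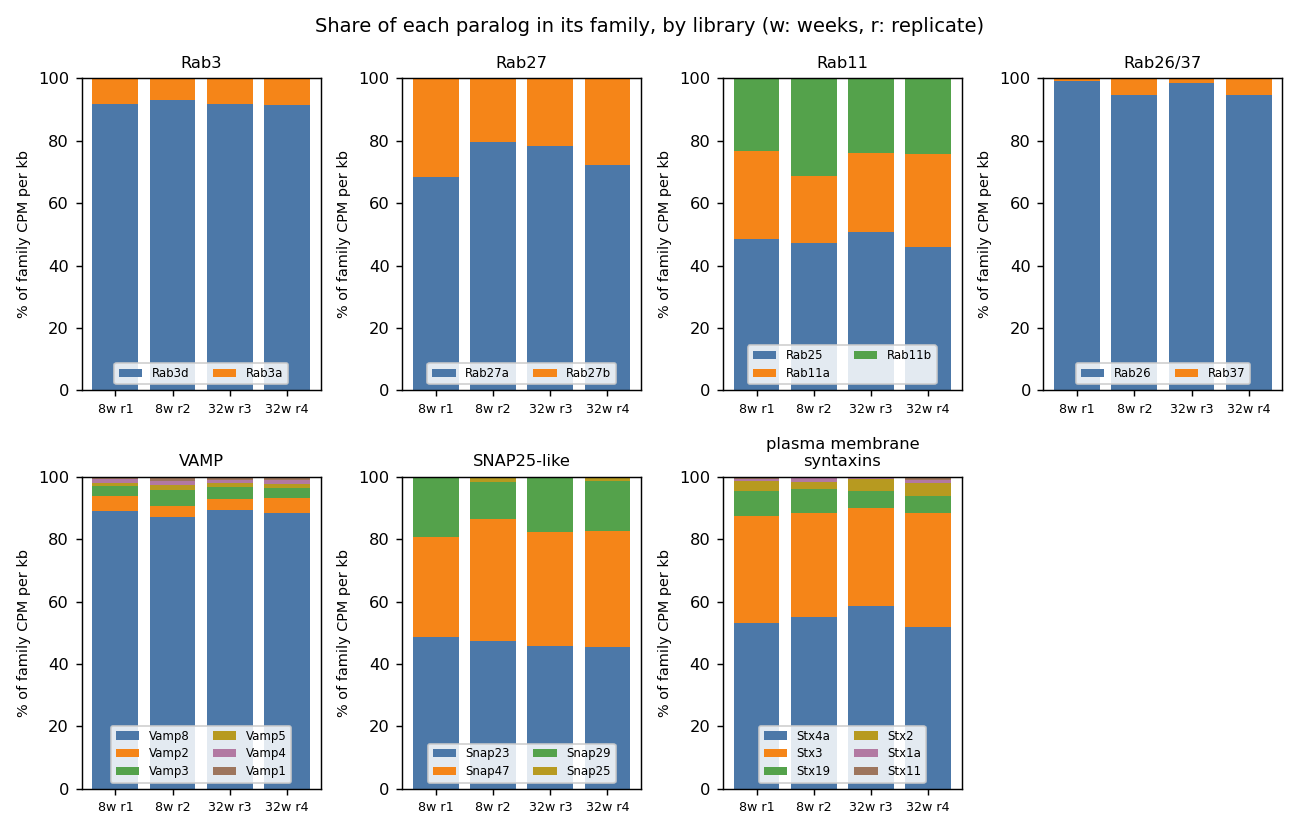
Share of each paralog in the summed CPM per kb of its family, in percent, for each of the 4 libraries, with paralogs under 0.1% on average not drawn. Rab3d (92.03% on average), Vamp8 (88.5%) and Rab26 (96.8%) fill most of their families, while the Rab11, SNAP25-like and syntaxin families are divided among 2 or 3 genes.

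On the target membrane, Snap23 was the largest SNAP25-type gene but not a dominant one. Snap23 (chr2:120393407-120426991, plus strand), the widely expressed partner of syntaxins in non-neuronal cells, had 33.2 and 46.2 CPM (8 weeks), then 28.05 and 32.1 CPM (32 weeks). It made up 46.8% ± 1.51 (SD, n = 4) of its family per kb, ahead of Snap47 with 36.2% ± 2.96 and Snap29 with 16.1% ± 2.95, and it exceeded Snap47 1.22-fold to 1.52-fold. Both of these paralogs lack the cysteine cluster shown above. Jmjd4 overlaps Snap47 on the other strand by 1142 bases, so part of the Snap47 count may be from Jmjd4. Neuronal Snap25 had 3 and 17 counts at 8 weeks and 2 and 13 counts at 32 weeks, or 0.910% ± 0.648 of the family. Vamp8 exceeded Snap23 16.1-fold to 31.0-fold per kb, and 8.99-fold to 17.3-fold over the union of exons.

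The plasma membrane syntaxins were shared by Stx4a and Stx3. Syntaxin-3 marks the apical and syntaxin-4 the basolateral membrane of many epithelia. Stx4a (chr7:134967808-134992533, plus strand) had 12.2 and 13.04 CPM (8 weeks), then 14.9 and 12.03 CPM (32 weeks). Stx3 (chr19:11849609-11893893, minus strand) had 17.6 and 17.8 CPM (8 weeks), then 17.96 and 19.0 CPM (32 weeks), all within 1.08-fold. Per kb the order turned, since the Stx3 transcript is the longer (3269 against 1456 bases): Stx4a made up 54.7% ± 2.88 and Stx3 33.9% ± 2.12 (SD, n = 4) of the family, with Stx4a 1.42-fold to 1.87-fold higher. Over the union of exons Stx4a was also higher in each library, by 1.33-fold to 1.75-fold. Stx19 made up 6.56% ± 1.43 but lies wholly within Arl13b, which is on the other strand, and Stx2 made up 3.30% ± 0.888. Stx1a and Stx11 had 2 to 7 counts in each library. Stx3 and Stx4a together summed to 13.7 to 15.7 CPM per kb, against 264 to 318 for Vamp8 alone. Over the union of exons the mean levels were 3.63 for Stx3, 5.52 for Stx4a and 100.3 CPM per kb for Vamp8.

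The promoters of the 2 most abundant members are shown because they contrast in composition. These are the 250 bases before the RefSeq start on GRCm38.p6, a later build than that of the counts, and capitals mark CCCGCCC on either strand.
Rab3d (chr9:21918184-21918433, minus strand): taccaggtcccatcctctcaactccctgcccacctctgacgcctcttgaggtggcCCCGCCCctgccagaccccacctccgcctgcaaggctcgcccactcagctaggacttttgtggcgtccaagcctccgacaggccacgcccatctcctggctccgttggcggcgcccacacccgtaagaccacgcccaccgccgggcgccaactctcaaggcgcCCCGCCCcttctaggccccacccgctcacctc
Vamp8 (chr6:72390668-72390917, minus strand): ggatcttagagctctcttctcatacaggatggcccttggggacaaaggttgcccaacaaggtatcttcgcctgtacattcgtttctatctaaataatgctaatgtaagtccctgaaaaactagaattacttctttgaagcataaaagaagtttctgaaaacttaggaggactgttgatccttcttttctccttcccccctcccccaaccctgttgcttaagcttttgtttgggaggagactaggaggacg
G and C made up 69.2% of the Rab3d stretch and 43.6% of the Vamp8 stretch, against a median of 52.4% over 32851 promoters. CCCGCCC was found at 2 places in Rab3d and at none in Vamp8, and 23.4% of all promoters held it. The general E-box CANNTG, searched on both strands and bound by factors of the Bhlha15 class, was not found in either stretch, and 66.2% of all promoters held it.

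The age comparison asked whether these genes differ between 8 and 32 weeks within the knockout. None of the 10 members passed: with edgeR's quasi-likelihood test over 12810 genes, 0 members and 0 genes (0%) reached an adjusted p of 0.05, and each member had an adjusted p of 0.999. At an unadjusted p under 0.05 there were 0 members, against 174 genes (1.36%). DESeq2 called 3 genes and limma-voom 0, and neither called a member. Members had a median log2 fold change (32 over 8 weeks) of 0.06, against -0.01 over all genes tested. In 3 members (Rab3d, Vamp8 and Stx3) both 32-week libraries lay above both 8-week libraries, and in Snap23 both lay below, against 14.4% and 14.2% of all genes tested in these directions. With library sizes taken as total counts only, Rab3d and Stx3 overlapped between the ages.

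The intervals bound how large a change could have been missed. For 9 of 10 members the 95% interval of the log2 fold change lay between -1 and 1, that is within a 2-fold change. Rab27b was the exception. The median half-width of the interval was 0.51 for members and 0.61 over all genes. For Rab3d the log2 fold change was 0.05 (SE 0.22, interval -0.47 to 0.57). For Vamp8 it was 0.15 (SE 0.22, interval -0.37 to 0.66). For Snap23 it was -0.40 (SE 0.22, interval -0.93 to 0.13), the largest of the 10 in size, and leaving out 8-week replicate 2 gave -0.13, leaving out 8-week replicate 1 gave -0.61. For Rab27b it was -0.19 (SE 0.35, interval -1.01 to 0.63). Leaving out 1 library moved Rab27b from -0.62 (without 8-week replicate 2) to 0.45 (without 8-week replicate 1). With 2 libraries against 2, an exact permutation test of a single share or ratio cannot reach 0.05 (its smallest p is 0.33), so none was run.

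**Figure D3:**
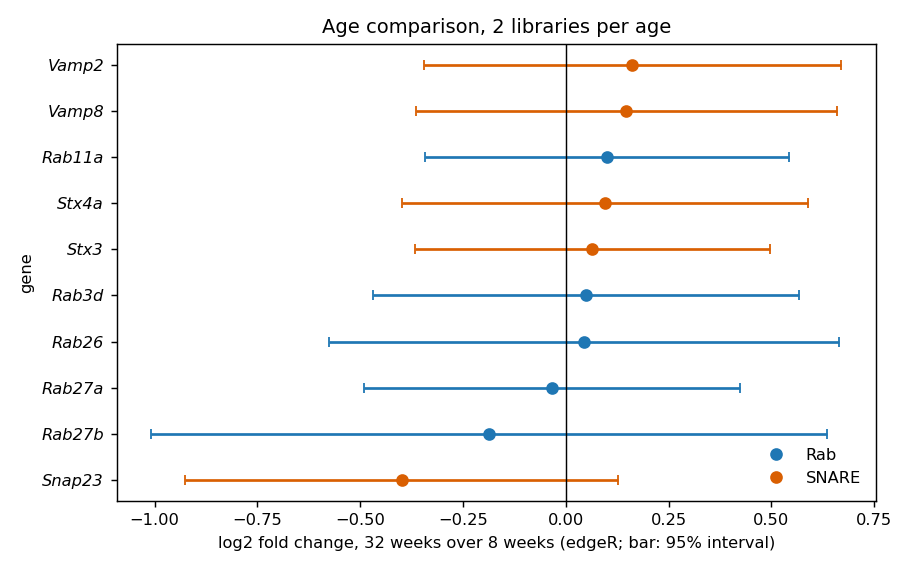
Log2 fold change at 32 over 8 weeks for each member, with edgeR's 95% interval, from 2 libraries per age. All 10 intervals include 0, and that of Rab27b (-1.01 to 0.63) is the widest.

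Most members varied less between libraries than the typical gene, and Rab27b, Snap23 and Vamp2 varied more. Over 6683 genes with a mean of at least 10 CPM, the median SD of log2 CPM across the 4 libraries was 0.20. Of the 9 members at that level, 6 were below the median of those genes. Rab3d had an SD of 0.03, and 0.419% of genes had a smaller one. Stx3 had 0.05. Which member is flattest depends on the scaling: with total counts in place of TMM, Rab3d ranged from 307 to 366 CPM (SD 0.11, smaller in 6.93% of genes), and Stx4a (SD 0.02, smaller in 0.134%) and Vamp8 (SD 0.04, smaller in 0.433%) varied least. Vamp2 had an SD of 0.22, and 56.1% of genes had a smaller one. Snap23 had an SD of 0.30, with its highest value in 8-week replicate 2. Rab27b had 0.48, and 94.6% of genes had a smaller SD.

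The levels of Rab27b ordered the libraries across the ages, highest in 8-week replicate 1 and next in 32-week replicate 4. The 5 genes of at least 10 CPM whose log2 CPM, centred on each gene's mean, came closest to Rab27b over the 4 libraries were Fndc3b, Crebzf, Atp13a3, Slc39a8 and Adgre1, with root mean square differences of 0.03 to 0.06. Fndc3b stood at 150.4 and 72.4 CPM (8 weeks), then 88.01 and 115 CPM (32 weeks). Among the 8 other members of at least 10 CPM, Vamp2 came nearest, at 0.29. Rab26, below that level, was not compared in this way, and its library order was that of Rab27b within a 1.16-fold range. The share of Rn45s had the same order of libraries as Rab27b. The 5 macrophage and dendritic cell markers summed to 213 and 160.1 CPM (8 weeks), then 169.6 and 197 CPM (32 weeks), again in that order. Most of this sum was Cd74 (127 to 167 CPM), and 1 of the 5 (Adgre1) is among the 5 nearest genes. Cd68 and Csf1r were highest in 32-week replicate 4. Csf1r was lowest in 8-week replicate 1, where Rab27b was highest (13.7 CPM, against 14.8 to 17.7 CPM in the others). The sum of the 6 B cell and plasma cell markers also had the library order of Rab27b, at 940.1, 77.5, 527 and 815 CPM in replicates 1 to 4. Mast cells and platelets also use Rab27b. Of the 6 mast cell markers Cma1 had the library order of Rab27b (1.11, 0.207, 0.276 and 1.05 CPM in replicates 1 to 4), Mcpt4 and Tpsb2 were higher in replicates 1 and 4 than in replicates 2 and 3, and Fcer1a had 0 counts throughout. Their sum (12.03 to 24.5 CPM, highest in 8-week replicate 2) was mostly Kit, and the others each stayed under 2 CPM. The 5 platelet markers summed to 6.76 to 12.9 CPM, highest in 32-week replicate 4 and lowest in 8-week replicate 2, with Gp1bb at 0 counts. The sum of the 6 serous and demilune markers was low where Rab27b was high, at 161623 and 184137 CPM in replicates 1 and 4. It was 348220 and 461853 CPM in replicates 2 and 3. Car6 departed from this, with 1478 CPM in 32-week replicate 4 against 986 CPM in 32-week replicate 3. Of the 6 mucous acinar markers 5 were lowest in 8-week replicate 2 as Rab27b was, against 35.3% of all genes tested. Among the 5 were Agr2, at 5.59 CPM against 49.5 to 57.1 CPM in the others, and Creb3l1, at 394 against 699 to 744 CPM. Fcgbp was lowest there by little (11.2 against 11.4 CPM in 8-week replicate 1). Muc19, the most abundant of the 6, was lowest in 8-week replicate 1 (12012 CPM), and so was the sum of the list. The sum of the 4 parotid markers was highest in 8-week replicate 1 (422 CPM), as Rab27b was. It was lowest in 32-week replicate 4 (2.73 CPM), where Rab27b was next to highest. The part of Rn45s or of any of these cell types in the Rab27b values was not tested.

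Snap23 had another profile, and its highest library was also that of the summed duct markers, though not of each marker. The 6 striated and excretory duct markers summed to 2123 and 4710 CPM (8 weeks), then 2312 and 1434 CPM (32 weeks), highest in 8-week replicate 2 as Snap23 was. Of the 6, 2 (Fxyd2 and Klk1) were highest there, and Klk1 (4324 CPM there) made up most of the sum. Scnn1a (14.6 CPM) and Ascl3 (8.50 CPM) were highest in 32-week replicate 3, where Snap23 was lowest. Kcnj1 and Slc12a1 had 0 to 6 counts in each library. The sum of the 5 submandibular granular duct markers, with Ren1 at 0 counts, was also highest there (283 CPM, against 130.2 to 176 CPM in the others). Of these 5, 2 were highest there. The lowest libraries differed: 32-week replicate 3 for Snap23 and 32-week replicate 4 for both duct lists. Their part in the Snap23 values was not tested.

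The wider machinery around the members was measured with 87 genes in 6 lists, of which 68 passed the filter on low counts. None of the 68 passed the age test in edgeR and 0 had an unadjusted p under 0.05, and 44 had a negative and 24 a positive log2 fold change (64.7% negative, median -0.11), against 51.7% negative and a median of -0.01 over all genes. The lean was 39 of 71 (median -0.04) without 8-week replicate 2 and 39 of 70 (median -0.04) without 32-week replicate 3. SNARE regulators had 11 of 14 negative (median -0.24), a lean that was 7 of 14 (median -0.02) without 8-week replicate 2. Exocyst subunits, which tether vesicles, had 7 of 9 negative (median -0.15), and syntaxins of Golgi and endosomes 5 of 8 (median -0.13). Rab effectors had 11 of 17 negative (median -0.07) and Rab regulators 9 of 13 (median -0.07). Calcium sensors had 6 of 7 positive (median 0.25). In 31 of the 68 genes (45.6%) the highest library was 8-week replicate 2, against 34.8% of all genes tested, and among SNARE regulators it was 10 of 14.

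Within the lists, per-length levels ranked the transcripts by abundance in whole-gland RNA. Among Rab effectors these were Mlph, a Slac2 protein that links Rab27 to myosin V, with 41.7 CPM per kb, Sytl3, a synaptotagmin-like Rab27 effector, with 23.9, and Myo5c, the myosin V of exocrine epithelia, with 15.6. Unc13d, a Rab27 effector of blood cells, had 0.484 to 1.25 CPM, and Rph3a and Rims1, effectors of synaptic Rab3, had 0 counts in all 4 libraries. Among Rab regulators Gdi2, which returns Rabs from membranes to the cytosol, led with 113 CPM per kb, and Rabggtb, a subunit of the enzyme that adds the lipids to the Rab ends shown above, had 18.4. Among SNARE regulators Napa, the adaptor for SNARE disassembly, had 52.4 CPM per kb, Stxbp2, the Munc18 protein of epithelia and blood cells, had 25.4 and Stxbp6 9.03. Cplx1, a complexin of synapses, had 0 to 0.276 CPM. Stx7 (42.3 CPM per kb) and Stx5a (40.4), which serve endosomes and the Golgi, and Stx12 (10.8) led the other syntaxins, and Stx7 and Stx5a were each above Stx3 and Stx4a. Exoc7 (9.93), Exoc4 (5.33) and Exoc3 (4.73 CPM per kb) led the exocyst. Over the union of exons Exoc4 (2.03) fell below Exoc3 (4.73), and Sytl3 (11.5) fell below Myo5c (15.6 CPM per kb).

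Among calcium sensors Syt7 led with 3.61 CPM per kb, ahead of Doc2b with 1.19 and Syt3 with 1.11. Syt1, the sensor of fast synaptic release, had 0 to 0.138 CPM, and Syt2 and Syt10 had 0 counts in all libraries. Syt7 had 33.9 and 11.1 CPM (8 weeks), then 22.7 and 30.8 CPM (32 weeks), lowest in 8-week replicate 2 and highest in 8-week replicate 1 like Rab27b. Its log2 fold change was 0.25 (edgeR adjusted p = 0.999). Without 8-week replicate 1, when 284 of 13267 genes were called (2.14%), Syt7 was the only gene of the 6 lists called (log2 fold change 1.27, edgeR adjusted p = 0.0399), with a single 8-week library left, and no member was called. Such a call compares with 1 library assumed to vary like the others.

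**Figure D4:**
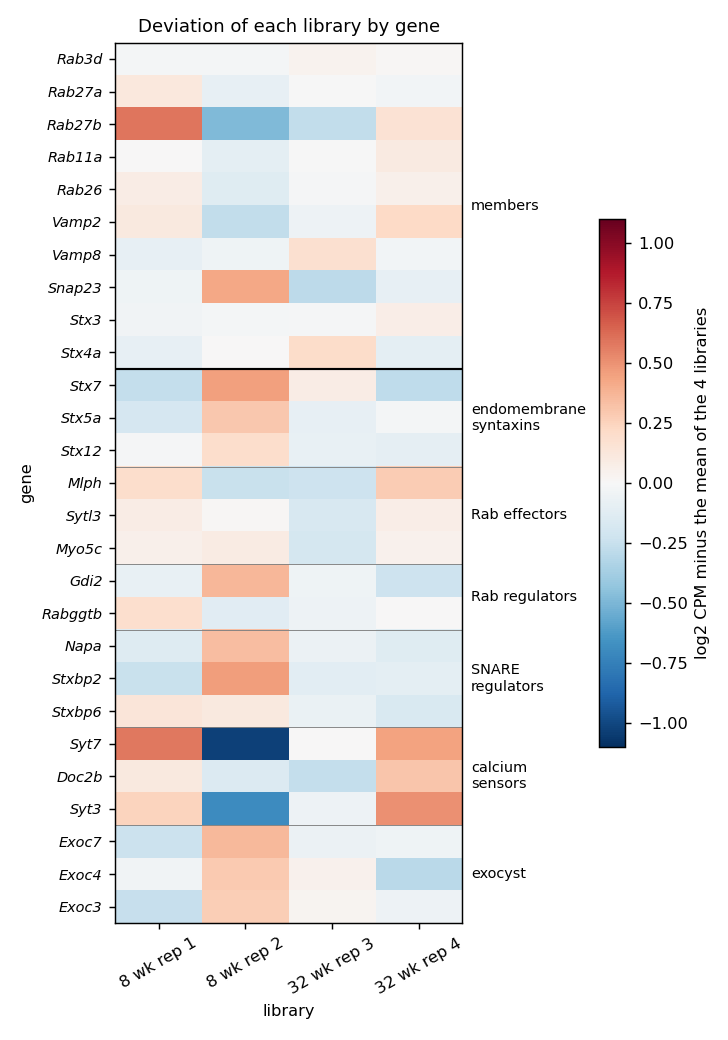
Log2 CPM of each library minus the mean of the 4, for the 10 members (above the thick line) and 2 or 3 of the genes with the highest level per kb in each of 6 lists. Rab3d and Stx3 are nearly flat, Rab27b and Syt7 are high in 8-week replicate 1 and low in 8-week replicate 2, and Snap23 and Stxbp2 are high in 8-week replicate 2.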

How the data were processed

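The authors deposited 1 table of raw counts, in whole numbers, with a row for each gene symbol. The submitters' processing notes name STAR and the mm9 build; how reads were counted, and with which annotation and strand setting, is unknown here. In R 4.3.3, edgeR 4.0.16's quasi-likelihood test was fitted to all counts (TMM, default low-count filter, age as the only term, Benjamini-Hochberg over 12810 genes). DESeq2 1.42.0 and limma 3.58.1 (voom) were alternatives. The scripts were tested on simulated data. Of 24411 symbols, 20836 matched GENCODE vM1 (NCBIM37, the assembly behind mm9) by name and 1356 through another symbol, and 20326 had a coding transcript length. A count of 0 allows up to 3 counts, or 0.174 to 0.221 CPM by library, for counting error only. Promoters came from RefSeq on GRCm38.p6. Named genes were the members, their paralogs, the 3 highest per kb in each list, genes past the test, Bhlha15, marker genes and the 5 genes nearest to the most variable member; other genes named (Rph3a, Rims1, Unc13d, Cplx1, Syt1, Syt2, Syt10 and Rab26os) were chosen after their values were seen. A few genes this rule names are not reported here. Members and lists were chosen with earlier results of these data known.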

Additional observations from a re-analysis of the deposited data

How the results depend on the processing

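No paired analysis was possible because the ages share no replicate number. No member was called under any of the 11 alternatives to the age test. Over all genes, against 0 in the test reported, 10 genes were called with total counts only, 7 with no low-count filter, 3 with DESeq2, and 6 to 284 with 1 library left out. Of the wider lists 0 to 1 gene was called with 1 library left out. Some fold changes near 0 changed sign: with total counts only the log2 values were -0.038 for Rab3d, -0.040 for Rab26, -0.017 for Stx3 and -0.0036 for Stx4a, where the median of all genes moved from -0.01 to -0.10. With 1 library left out they ranged from -0.13 to 0.076 for Rab27a (above 0 without 8-week replicate 1), from -0.62 to 0.45 for Rab27b (above 0 without 8-week replicate 1 and, at 0.02, without 32-week replicate 3), from -0.054 to 0.16 for Rab26 and from -0.0099 to 0.37 for Vamp2 (both below 0 without 8-week replicate 2), and from -0.058 to 0.25 for Stx4a (below 0 without 32-week replicate 3). Over the union of exons the shares were 93.9% for Rab3d, 81.9% for Rab27a, 80.6% for Vamp8, 41.3% for Snap23 and 50.9% for Stx4a, and Vamp8 exceeded Rab3d 1.24-fold. With no length they were 96.6% for Rab3d, 56.2% for Rab27a, 33.8% for Rab11a, 73.9% for Vamp8, 50.4% for Snap23 and 35.9% for Stx4a. Rab3d, Rab27a, Rab26, Vamp8 and Snap23 led their families under all 3 length choices, while with no length Rab11b led in place of Rab25 and Stx3 in place of Stx4a. The transcripts in use were not measured.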
